A study of Homo sapiens with 8 samples.

Results

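ARRDC3, TXNIP, DDIT4, DDIT4L, SESN2 and NDRG1 are genes that link cell stress to nutrient uptake and growth, and HIF-1β binding around them was compared in 4 cancer cell lines. They were chosen by name, with earlier results on these peak lists known, and are 6 of the 20163 protein-coding genes in the annotation. For each gene, every peak that overlapped its body extended by 120 kb on each side was taken, which gave 12 to 17 peaks per library and 0.622% of the 18645 peaks in the 8 lists. HIF-1β (ARNT), the subunit shared by all HIF dimers, was immunoprecipitated with its bound chromatin and the DNA sequenced (ChIP-seq) in PC-3 cells from prostate cancer, T47D cells from breast cancer, A549 cells from lung cancer and HCT-116 cells from colorectal cancer. All cells were held at 0.5% oxygen for 16 h, and there were 2 replicates of each line, numbered 1 and 2 for PC-3 and T47D and 2 and 3 for A549 and HCT-116. Neither cells in normal oxygen nor a control library was analysed here, each line is a single line, and no source used here says whether replicates came from separate cultures, so p-values measure the spread between these libraries.

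HIF is held low in oxygenated cells because its α subunits are hydroxylated and then destroyed through pVHL, and in hypoxia it binds DNA at the core motif ACGTG or GCGTG. ARRDC3 and TXNIP belong to the alpha-arrestins, adaptors that bring ubiquitin ligases to membrane proteins, and TXNIP also binds thioredoxin and lowers glucose uptake. DDIT4 (REDD1), its paralogue DDIT4L (REDD2) and SESN2 (sestrin 2) restrain mTORC1, the kinase complex that drives growth when nutrients are plentiful, and NDRG1 is a stress-induced protein phosphorylated by SGK1 and long used as a marker of hypoxia.

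The lists give intervals and scores only, and without reads the depth behind them is unknown. Only HIF-1β was immunoprecipitated, so neither a peak nor a motif in it tells which partner was bound with HIF-1β. Each list starts at a score close to 50, and the length of a list ranged from 1042 peaks in PC-3 replicate 1 to 3790 in HCT-116 replicate 2. A score has no stated scale common to all libraries, so it was read with its rank in its own list, where rank 1 is the highest score. A site here is a region in which peaks of both replicates of a line overlapped by at least 1 bp, and positions are given on GRCh37 (hg19), with distances measured from the centre of the merged region to the transcription start. These peaks fell into 29 regions, of which 23 were a site in at least 1 line.

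The sequences at 5 of these regions are shown first, because 4 of them lie in the regions around ARRDC3, DDIT4 and DDIT4L that had a peak in all 8 libraries and the other is the highest-scoring region around DDIT4. Each is 200 bp of the plus strand of GRCh37, taken at the centre of the stretch common to all peaks of the region, except that the DDIT4 promoter is given as the bases before the transcription start. Capitals mark ACGTG or GCGTG on this strand and CACGT or CACGC where the motif lies on the other strand. The 5 stretches hold 2, 0, 2, 1 and 2 motifs in the order printed.
ARRDC3, 102.4 kb downstream, chr5:90576373-90576572: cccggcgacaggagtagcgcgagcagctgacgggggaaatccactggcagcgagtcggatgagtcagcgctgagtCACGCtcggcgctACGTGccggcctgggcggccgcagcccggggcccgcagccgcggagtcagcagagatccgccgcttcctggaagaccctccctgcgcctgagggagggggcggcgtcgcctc
DDIT4, 12.9 kb upstream, chr10:74020811-74021010: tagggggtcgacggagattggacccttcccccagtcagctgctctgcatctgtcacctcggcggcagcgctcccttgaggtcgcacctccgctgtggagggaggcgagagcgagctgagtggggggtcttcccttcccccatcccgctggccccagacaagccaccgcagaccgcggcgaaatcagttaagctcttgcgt
DDIT4, promoter, chr10:74033478-74033677: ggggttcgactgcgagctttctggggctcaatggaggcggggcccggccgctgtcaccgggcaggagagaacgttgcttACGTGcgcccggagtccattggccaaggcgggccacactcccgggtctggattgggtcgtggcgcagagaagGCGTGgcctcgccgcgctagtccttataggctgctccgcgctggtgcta
DDIT4, 45.8 kb downstream, chr10:74079443-74079642: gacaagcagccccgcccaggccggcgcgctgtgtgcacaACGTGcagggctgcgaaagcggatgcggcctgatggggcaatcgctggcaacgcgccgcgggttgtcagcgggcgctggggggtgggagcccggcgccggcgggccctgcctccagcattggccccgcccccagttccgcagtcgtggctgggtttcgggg
DDIT4L, 94.3 kb downstream, chr4:101017232-101017431: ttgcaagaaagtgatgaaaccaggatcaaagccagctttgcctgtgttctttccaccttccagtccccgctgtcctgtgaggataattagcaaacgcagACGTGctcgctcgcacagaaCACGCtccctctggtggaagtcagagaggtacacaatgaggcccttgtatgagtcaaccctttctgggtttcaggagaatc

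HIF-1β sites lay mostly away from the starts of these genes, which is not particular to them. Over all protein-coding genes, 15.5% to 34.4% had a site in the extended window, by line, and 1.46% to 6.65% within 2 kb of the start. ARRDC3, DDIT4, DDIT4L and NDRG1 had a site within the extended window in all 4 lines, whereas TXNIP and SESN2 had one only in T47D and HCT-116. The share of all protein-coding genes with a site in all 4 lines was not computed, so this number has no baseline. Every site of TXNIP and SESN2 had the start of another protein-coding gene nearest to it. In PC-3 cells 4 of the 6 genes had a site, where 17.6% of all protein-coding genes did in a window made in the same way, and in A549 cells it was 4 of 6 beside 15.5%. All 6 genes had a site in T47D cells, beside 34.4% of all genes, and in HCT-116 cells, beside 31.3%. These counts describe the genes that were chosen by the rule, so no test was made of them. At the starts the picture was narrower. Outside PC-3 cells, DDIT4 was the one gene with a site within 2 kb of its start, where 6.65% of all genes had one in T47D, 1.46% in A549 and 5.75% in HCT-116. In PC-3 cells DDIT4 and NDRG1 both had one, beside 1.97% of all genes. With a window of 25 kb in place of 120 kb, the number of genes with a site was 2 for PC-3, T47D and A549 and 1 for HCT-116, where 7.07%, 16.0%, 6.01% and 14.2% of all genes had one in the same order of lines.

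**Figure D1:**
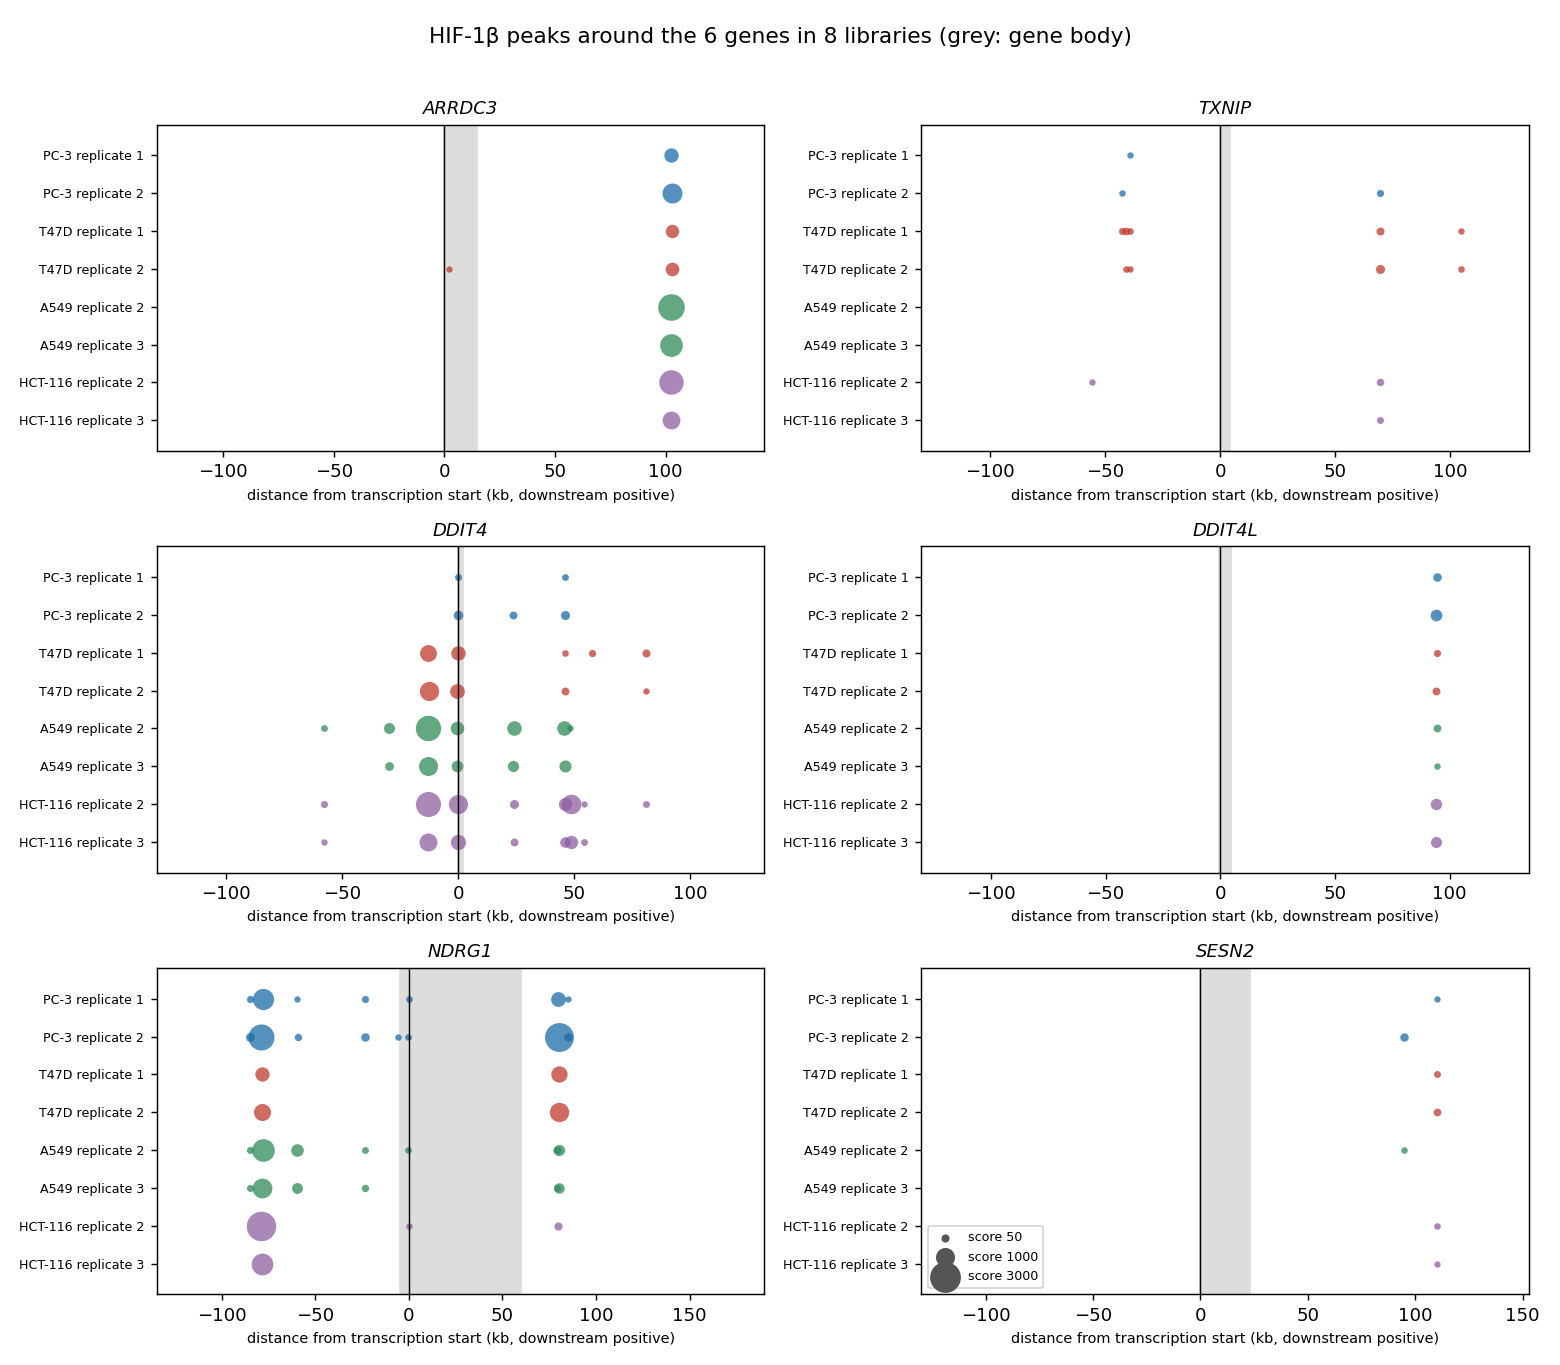
Position of every HIF-1β peak around the 6 genes. Each panel is 1 gene and each row 1 library, the horizontal axis is the distance from the transcription start in kb with downstream positive, the grey band is the gene body and the area of a point grows with the peak's score. The columns of points in all 8 rows lie at 102.4 kb for ARRDC3, 94.3 kb for DDIT4L, -78.5 kb for NDRG1, and at the start and 45.8 kb for DDIT4.

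ARRDC3 (ENSG00000113369, chr5:90664448-90679134, minus strand), the alpha-arrestin that carries β-adrenergic and other receptors towards degradation, had 1 site, and it was a strong one in every line. The merged region, chr5:90575387-90578020, lies 102.4 kb downstream of the start, beyond the end of the gene. It covers exons of the long non-coding RNAs LUCAT1, ENSG00000234292 and ENSG00000286638 and the annotated starts of the latter pair, and the nearest protein-coding start is that of ARRDC3 itself. The scores were 665 and 1372 in replicates 1 and 2 of PC-3 cells, 566 and 594 in T47D cells, 2512 and 1797 in replicates 2 and 3 of A549 cells, and 2109 and 1075 in HCT-116 cells. These gave ranks of 38 and 40 in PC-3, 104 and 125 in T47D, 2 and 5 in A549, and 36 and 50 in HCT-116. Because the lists differ in length, libraries were also set side by side by the share of their peaks that scored higher. For a given rank, that share is smaller in a longer list. Both A549 libraries, at 0.0566% and 0.315%, stood above all others, and T47D, at 3.36% and 4.26%, overlapped PC-3, at 3.55% and 1.35%. By rank, both T47D libraries stood below both PC-3 libraries, so that overlap depends on the measure. The region holds 8 HIF motifs, 3 of them ACGTG, and the pair nearest the centre of the stretch common to all peaks is shown in the sequence above. The one other peak in the ARRDC3 window lay 2.3 kb downstream of the start, within the gene, and was found in T47D replicate 2 alone, with a score of 52.6 and rank 2728.

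TXNIP (ENSG00000265972, chr1:145438490-145442635, plus strand), which is known as a brake on glucose uptake, had no peak within 38602 bp of its start in any library. A549 cells had no peak in the whole window. T47D cells had 4 sites, and PC-3 cells had peaks in each replicate but no site. The site 41.1 kb upstream of the start scored 124 and 66.5 in replicates 1 and 2 of T47D cells, and that 39.2 kb upstream, in an intron of HJV, the gene of the iron regulator hemojuvelin, scored 69.4 and 55.4. PC-3 replicate 1 had a peak of 54.2 at the latter region. The site 104.7 kb downstream, at an exon of the integrin gene ITGA10, scored 55.1 and 68.4 in T47D cells and was the only one of the 23 regions with a site that held no HIF motif. The remaining site lies 69.4 kb downstream and covers the start of RBM8A, a subunit of the exon junction complex. It scored 141 and 209 in T47D cells and 112 and 85.5 in HCT-116 cells, and PC-3 replicate 2 alone had a peak there of 90.4. Single peaks lay 42.9 kb upstream, in T47D replicate 1 and PC-3 replicate 2, and 55.8 kb upstream, in HCT-116 replicate 2. The best rank of any peak around TXNIP was 478, at RBM8A in T47D replicate 2.

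DDIT4 (ENSG00000168209, chr10:74033678-74035794, plus strand), which is induced by hypoxia and other stresses and restrains mTORC1 through TSC1 and TSC2, had the most peaks, 41 over the 8 libraries. They fell into 10 regions, 9 of which were a site in at least 1 line. PC-3 cells had 2 of these sites, T47D cells 4, A549 cells 5 and HCT-116 cells 7. The promoter and a region 45.8 kb downstream were sites in all 4 lines, and the other regions varied between lines.

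The DDIT4 promoter region (chr10:74031853-74035312) is centred 96 bp before the start and also covers the start of a long non-coding RNA on the other strand, ENSG00000289506. Its peak scored 81.5 and 243 in replicates 1 and 2 of PC-3 cells, 668 and 701 in T47D cells, 587 and 406 in replicates 2 and 3 of A549 cells, and 1256 and 757 in HCT-116 cells. PC-3 libraries were the lowest, with 56.3% and 14.1% of peaks scoring higher, and did not overlap the other 6 libraries, in which between 2.03% and 8.19% of peaks scored higher. The region holds 8 HIF motifs, but 7 of them are GCGTG and 1 is the ACGTG shown above.

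The strongest DDIT4 site lies 12.9 kb upstream (chr10:74019806-74021788), between genes, with DDIT4 as the nearest protein-coding start. No peak was listed there in either PC-3 library. The scores were 951 and 1265 in T47D, 2267 and 1238 in A549 and 2212 and 1090 in HCT-116 cells. In A549 cells, where the ranks were 7 and 18, and in T47D cells, where they were 53 and 45, the upstream site ranked above the promoter in both replicates. The same order held in HCT-116 cells, with ranks of 33 and 48 against 78 and 65 at the promoter. The 4 HIF motifs of this region lie at -557, -133, -119 and 98 bp along the plus strand from the centre of the stretch common to its peaks, and none is complete in the 200 bp printed.

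Downstream of DDIT4, the region at 45.8 kb (chr10:74078764-74080279) lies between genes and scored 74.1 and 211 in PC-3 cells, 66.6 and 134 in T47D, 690 and 445 in A549, and 548 and 321 in HCT-116 cells. A549 and HCT-116 libraries, with 4.52% to 11.3% of peaks scoring higher, stood above all PC-3 and T47D libraries, with 16.7% to 67.4%. Its nearest protein-coding start is that of DNAJB12, a membrane-anchored co-chaperone. The region at 23.9 kb was a site in A549 cells, with scores of 683 and 367, and in HCT-116 cells, with 201 and 139. PC-3 replicate 2 alone had a peak there of 139, and T47D cells had none.

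Other regions around DDIT4 were sites in a single line. HCT-116 cells had a site at 48.5 kb, next to the one at 45.8 kb, that scored 1315 and 556, with ranks of 74 and 102, while A549 replicate 2 had a peak of 54.9 there and the remaining libraries had none. A549 cells had a site 29.9 kb upstream with scores of 351 and 188, at which no other library had a peak. The remaining single-line sites were weaker. HCT-116 cells had sites 54.3 kb downstream, with scores of 53.5 and 78.5, and 57.8 kb upstream, with 95.6 and 53.9. The latter lies at the starts of ANAPC16, a subunit of the anaphase-promoting complex, and ASCC1, and A549 replicate 2 had a peak of 76.9 there. The T47D site 80.9 kb downstream covers the start of DNAJB12 and scored 145 and 54.3. HCT-116 replicate 2 had a peak of 80.3 at that start. A region 57.9 kb downstream had a peak in T47D replicate 1 alone.

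DDIT4L (ENSG00000145358, chr4:101107027-101111939, minus strand), the paralogue of DDIT4 that restrains mTORC1 in the same way, had a single region of binding and no peak at its own start. The region (chr4:101016750-101017979) lies 94.3 kb downstream of the start, in an intron of the long non-coding RNA H2AZ1-DT, and the nearest protein-coding start is that of DDIT4L. It was a site in all 4 lines. The scores were 178 and 411 in PC-3 cells, 93.1 and 137 in T47D, 135 and 57.3 in A549 and 386 and 358 in HCT-116 cells. All 4 PC-3 and HCT-116 libraries therefore scored above all 4 T47D and A549 libraries, with 7.3% to 21.5% of peaks scoring higher in the former and 29% to 85% in the latter. The stretch common to all 8 peaks is 449 bp long. The centre of that stretch holds the ACGTG and the reverse-strand GCGTG printed above, and the region of 1230 bp has 1 further GCGTG. An oligonucleotide of 120 bases that the study designed for chromosome conformation capture at 4q23 matches chr4:101017256-101017375 in this region. The study ran the capture in a renal cancer line not used here. It reported no significant contact of the 4q23 locus with any gene promoter.

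SESN2 (ENSG00000130766, chr1:28586029-28609002, plus strand), a stress-induced leucine sensor that restrains mTORC1 through GATOR2, had no peak in its body or near its start. Its 1 site lies 110.2 kb downstream, at the start of PHACTR4, a regulator of protein phosphatase 1 and actin. The scores were 81.3 and 127 in replicates 1 and 2 of T47D cells and 66.5 and 52.0 in replicates 2 and 3 of HCT-116 cells. Between 32.4% and 95.6% of the peaks in the same library scored higher. PC-3 replicate 1 had a peak of 52.1 at the same region. A region 94.8 kb downstream had a peak of 167 in PC-3 replicate 2 and of 60.6 in A549 replicate 2, and was a site in neither line.

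NDRG1 (ENSG00000104419, chr8:134249418-134314265, minus strand) had 36 peaks in 8 regions, and its number of sites varied the most between lines. There were 7 sites in PC-3 cells, 2 in T47D, 5 in A549 and 1 in HCT-116 cells. The region 78.5 kb upstream (chr8:134386250-134389826) was the one found in all 8 libraries. It scored 1547 and 2406 in PC-3 cells, 654 and 979 in T47D, 1789 and 1344 in A549 and 3100 and 1643 in HCT-116 cells. T47D libraries were the lowest, with 2.91% and 2.27% of peaks scoring higher, against at most 1.02% in the other 6 libraries. The score of 3100 was shared with 12 other peaks of HCT-116 replicate 2, so its rank of 1 is a tie. The region is intergenic with NDRG1 as the nearest protein-coding start, and it holds 15 HIF motifs, of which 12 are ACGTG. It has 4 copies of the palindrome CACGTG, each of which counts as ACGTG on both strands.

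On the other side of NDRG1, a region 80.2 kb downstream of the start lies in an intron of CCN4, a secreted matricellular protein. It scored 708 and 2987 in PC-3 cells, 883 and 1283 in T47D cells, and 372 and 309 in A549 cells, taking the higher of the pair of peaks in each A549 library. In HCT-116 cells only replicate 2 had a peak, of 148. T47D libraries scored higher here than at the site 78.5 kb upstream, whereas both A549 libraries scored lower. PC-3 cells had another site in CCN4 85.0 kb downstream, with scores of 50.6 and 177.

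The promoter of NDRG1 carried little in comparison. The region centred 243 bp before the start scored 69.3 and 69.5 in the PC-3 replicates, with 67.6% and 67% of peaks scoring higher. A549 replicate 2 had a peak of 68.2 and HCT-116 replicate 2 one of 60.8, neither shared with the other replicate. That region nevertheless holds 16 HIF motifs, 14 of them GCGTG. Regions 23.4, 59.6 and 84.8 kb upstream were sites in PC-3 and A549 cells and had no peak in T47D or HCT-116 cells. At 59.6 kb, A549 cells scored 488 and 341 and PC-3 cells 52.9 and 108. At 23.4 kb the scores were 95.2 and 173 in PC-3 cells and 79.7 and 107 in A549 cells, and at 84.8 kb they were 95.9 and 199 in PC-3 cells and 90.3 and 85.7 in A549 cells. A peak 6.0 kb upstream was found in PC-3 replicate 2 alone.

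**Figure D2:**
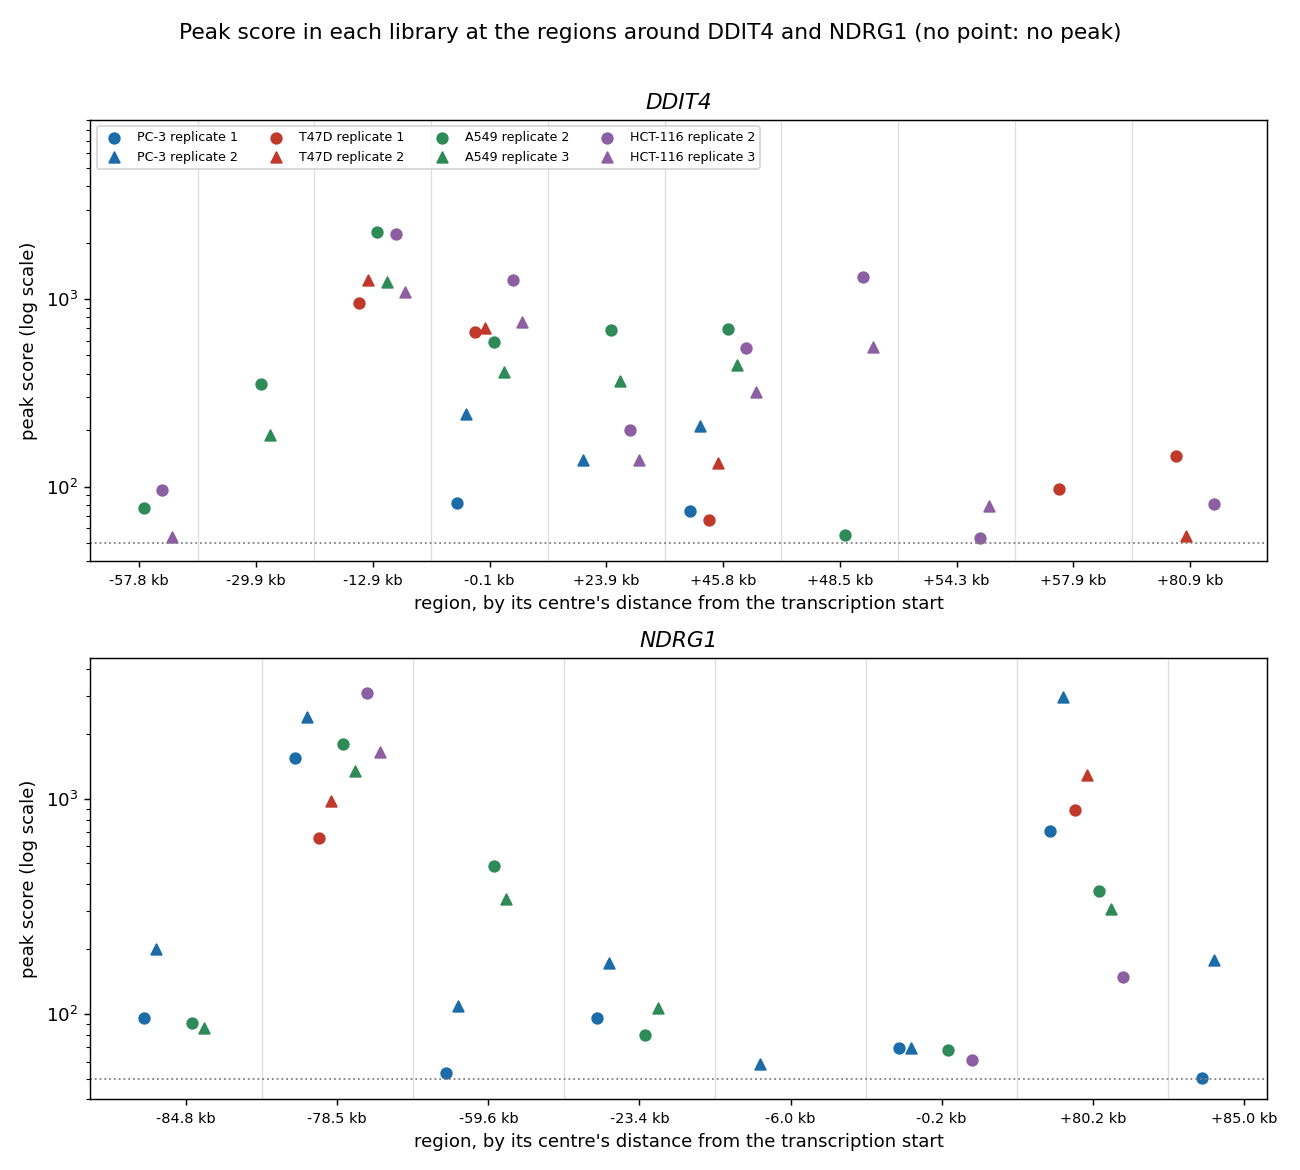
Peak score in each library at the regions around DDIT4 (top) and NDRG1 (bottom). Regions are ordered by their distance from the transcription start, the vertical axis is the score on a log scale, colours are lines, circles and triangles are the lower- and higher-numbered replicate, and the dotted line marks a score of 50. Points are missing where a library had no peak, as for PC-3 cells at -12.9 kb of DDIT4 and for T47D and HCT-116 cells at -23.4, -59.6 and -84.8 kb of NDRG1.

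**Figure D3:**
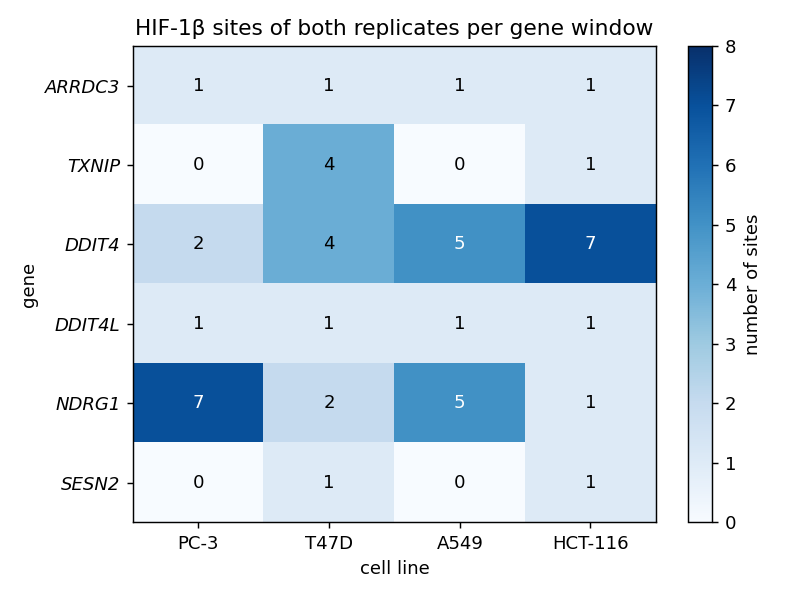
Number of sites (peaks of both replicates) in the extended window of each gene, by line. DDIT4 ranged from 2 sites in PC-3 cells to 7 in HCT-116 cells, and NDRG1 from 1 in HCT-116 cells to 7 in PC-3 cells.

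Whether the rank of a peak depended on the cell line was tested at the 5 regions with a peak in every library. The percentage of peaks in the same library with a higher score was compared for every possible grouping of the 8 libraries into 4 pairs, and p is the share of groupings in which pair members were as close as true replicates (exact permutation test, one-sided, smallest possible p 0.0095). Differences between lines made up 91.6% of the spread at the NDRG1 region 78.5 kb upstream, 76.5% at the ARRDC3 region, 69% at the DDIT4L region, 62% at the DDIT4 promoter and 61.4% at the DDIT4 region 45.8 kb downstream. Random pairs of libraries also leave part of the spread between pairs, so a share is read only with its test. After adjustment over the 5 regions none passed 0.05, and the smallest value was at the DDIT4 promoter (exact permutation test, p = 0.019, adjusted p = 0.095). The others had adjusted p from 0.14 to 0.16 in the same exact test. Replicates differed by up to 0.836 percentage points at the NDRG1 region and 2.2 at the ARRDC3 region, but by 42.2, 45.8 and 49.7 points at the DDIT4 promoter, the DDIT4 region 45.8 kb downstream and the DDIT4L region. At the DDIT4 promoter the values of the PC-3 replicates were 56.3% and 14.1%. List length enters these percentages, because the same rank gives a smaller percentage in a longer list.

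**Figure D4:**
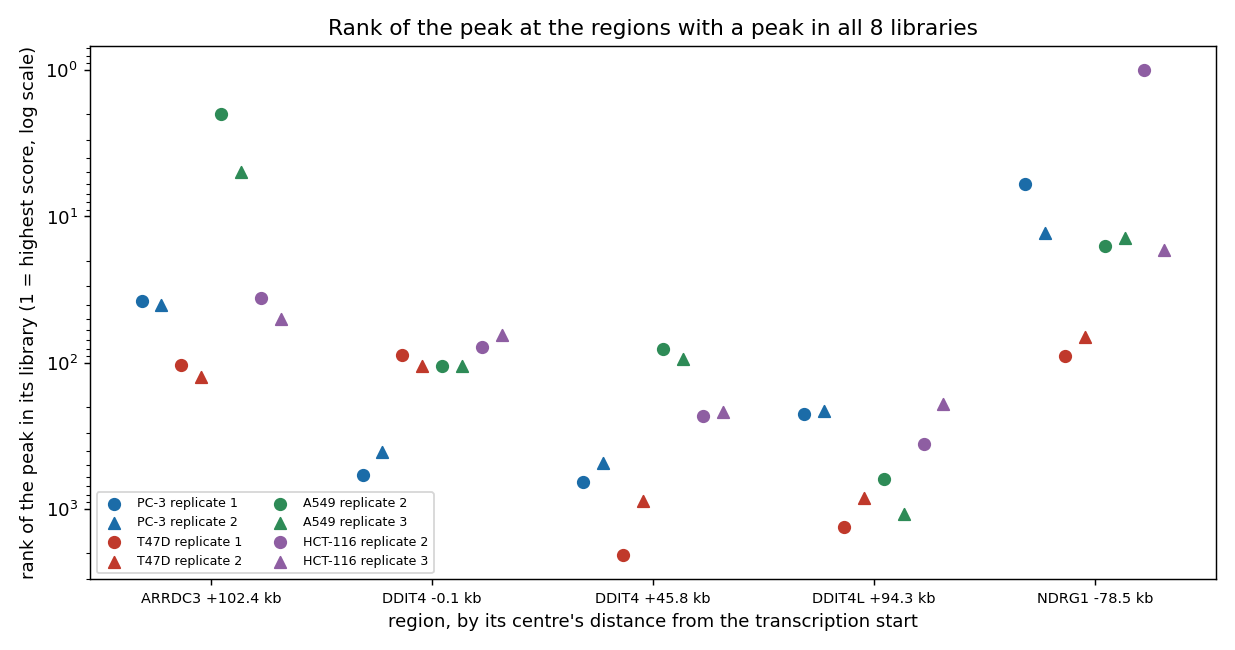
Rank of the peak in its own library at the 5 regions with a peak in all 8 libraries, on a log axis with rank 1 at the top and with lists that differ in length. Colours are lines, and circles and triangles are the lower- and higher-numbered replicate. A549 libraries stand highest at ARRDC3, with ranks of 2 and 5, PC-3 libraries lowest at the DDIT4 promoter, with 588 and 410, and T47D libraries lowest at NDRG1, with 90 and 67.

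Replicates agreed on most of these peaks. In PC-3 cells 84.6% of the peaks of replicate 1 and 68.8% of those of replicate 2 in the windows overlapped a peak of the other replicate, where 93.1% and 33.6% of the whole lists did. In T47D cells it was 86.7% and 92.9%, beside 67.6% and 71.3%. For replicates 2 and 3 it was 76.5% and 100% in A549 cells, beside 59% and 82%, and 75% and 100% in HCT-116 cells, beside 46.5% and 92.1%. Peaks of 1 replicate alone were therefore most common in PC-3 replicate 2, A549 replicate 2 and HCT-116 replicate 2, the longer list of each line.

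Of the 23 regions with a site, 17 lay more than 2 kb from the start of every protein-coding gene's canonical transcript, 2 lay at the start of the gene itself (DDIT4 and NDRG1) and 4 at the start of a neighbour (RBM8A, ANAPC16 with ASCC1, DNAJB12 and PHACTR4). Of the 17, 2 (the TXNIP sites 41.1 and 39.2 kb upstream) lay within 2 kb of the 5' end of HJV, where another of its transcripts is annotated to begin. The nearest protein-coding start was that of the gene itself for 10 of the 23. By line, 9 of 11 sites in PC-3 cells, 9 of 13 in T47D cells, 11 of 12 in A549 cells and 8 of 12 in HCT-116 cells were more than 2 kb from every canonical start, beside 63.3%, 44.7%, 74.4% and 42.7% of all sites of the line. A HIF motif on either strand was present in 22 of the 23 regions, where 98.4%, 96.3%, 96.3% and 99% of all sites in PC-3, T47D, A549 and HCT-116 held one. In the central 200 bp of the merged region it was present in 15, or 65.2%. That centre can differ from the centre of the stretch common to the peaks, which was used for the printed sequences. The merged regions, with a median of 1807 bp, were also wider than the sites of a line, with medians of 1193 to 1445 bp. Among all sites, 73.6% in PC-3, 64.3% in T47D, 71.1% in A549 and 73% in HCT-116 cells had one in the central 200 bp, so the regions around these genes lay within the range of all sites. A match describes the sequence and not binding.

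Promoters were also read from a table of 35116 RefSeq promoters on GRCh38.p14, each 250 bases before to 50 after a start, in which 5 of the 6 genes were matched. The DDIT4 promoter held 4 HIF motifs and that of TXNIP 2, and those of ARRDC3, DDIT4L and SESN2 held 0. Over all these promoters, 48.4% held at least 1 motif, 23.1% at least 2 and 4.4% at least 4. TXNIP was thus a gene with motifs at its start and no listed peak within 38602 bp of it. Motifs without a site at the start are not particular to TXNIP. By line, only 1.46% to 6.65% of all protein-coding genes had a site within 2 kb of the start.

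Genes related to these by family or pathway were read from lists that were likewise chosen with earlier results known. A list of 34 genes covered the mTOR kinase complexes and the upstream regulators of mTORC1. Of these, 7 had a site in the extended window in PC-3 cells, 13 in T47D, 7 in A549 and 18 in HCT-116 cells. Within 2 kb of the start it was 1, 5, 0 and 5. Over all protein-coding genes the shares, for comparison with all of these lists, were 17.6%, 34.4%, 15.5% and 31.3% in the window and 1.97%, 6.65%, 1.46% and 5.75% at the start, in the same order of lines. Of 9 relatives of the 6 genes (other alpha-arrestins, sestrins and NDRG genes), 2, 5, 1 and 3 had a site in the window in the same order of lines and 1, 1, 0 and 0 at the start. Of 7 genes for thioredoxin and the Mondo factors that induce TXNIP in response to glucose, 2, 5, 1 and 4 had a site in the window and 0 at the start in any line. Of 8 stress genes, 2, 5, 2 and 5 had a site in the window and 1, 1, 1 and 2 at the start. BNIP3, a mitophagy receptor induced by hypoxia, was the one gene of all 4 lists with a site at its start in every line, with scores of 104.6 and 359 in PC-3, 216 and 262 in T47D, 88.0 and 222 in A549, and 373 and 316 in HCT-116 cells.

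The window of 120 kb decided which regions were counted. Measured from the gene body, the farthest peak inside lay at 99725 bp for TXNIP, 89471 bp for DDIT4L, 87428 bp for ARRDC3, 86854 bp for SESN2, 79489 bp for NDRG1 and 78321 bp for DDIT4. The nearest peak outside lay at 124280 bp for NDRG1, 132308 bp for TXNIP and 148722 bp for ARRDC3. It was farther away for SESN2, at 244110 bp, for DDIT4, at 308264 bp, and for DDIT4L, at 621588 bp.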

How the data were processed

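HIF-1β ChIP-seq peaks of 8 libraries were analysed. The submitters' processing notes name Trim Galore 0.3.3, BWA 0.7.5a-r405, SAMtools 0.1.19, Picard 1.106, bedtools 2.17.0 and MACS, with GRCh37 (hg19). The authors deposited 1 MACS peak list per library, giving the position of each peak with a score of unstated scale. The study's methods also name T-PIC as a second peak caller, and whether the lists were filtered by it is not given in the sources used here. No read counts were used.

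Within a line, overlapping peaks (1 bp or more) of the replicates were joined into sites, and overlapping peaks of all libraries into regions. Gene bodies and starts (canonical transcript, otherwise the gene's 5' end) came from GENCODE release 44 lifted to GRCh37. Motifs were counted on both strands, each copy separately. The spread between lines was tested by exact permutation over all pairings of the libraries, with Benjamini-Hochberg adjustment over the regions. Python 3.11.15, NumPy 2.4.6, SciPy 1.17.1, pysam 0.24.0, samtools 1.23.1 and Matplotlib 3.10.9 were used. Merging was checked on simulated peak lists, and the permutation test on simulated normal values rather than on peak lists.

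The 6 genes and the gene lists were chosen with earlier results of these data known. Named genes are the 6, protein-coding genes with a start within 2 kb of a site in their windows, the 3 genes with the most similar ranks, and list genes with a site at the start in all 4 lines. Others named are genes that a region overlaps. Alternatives changed the overlap, the replicates, the share of each list, the window, the score measure, the start and the stretch searched for motifs, and a replicate block was added after the data were seen.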

Additional observations from a re-analysis of the deposited data

How the results depend on the processing

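Counts of sites and of genes depended mainly on the window. With 25 kb on each side, the genes with a site numbered 2 in PC-3, 2 in T47D, 2 in A549 and 1 in HCT-116 cells (all genes 7.07%, 16.0%, 6.01% and 14.2%), and the sites 5, 3, 5 and 3. With the gene body alone, the genes numbered 2, 1, 1 and 1 (all genes 3.44%, 8.78%, 3.12% and 7.74%) and the sites 2, 1, 1 and 1. Counting a peak of either replicate gave 18 sites in PC-3 cells. The higher-scoring 50% of each list left 6 sites in PC-3 and 7 in T47D cells. Counting only sites whose nearest protein-coding start was that of the gene left 5 sites in T47D and 6 in HCT-116 cells. The genes with such a site then numbered 4 in each line, and the share of all genes under the same rule was not computed. With 1 replicate left out, every peak of the other counted as a site, and the genes ranged from 6 to 6 in PC-3, 6 to 6 in T47D, 4 to 5 in A549 and 6 to 6 in HCT-116 cells (all genes 18.5% to 37.9%, 43.1% to 44.5%, 18.3% to 23.1% and 32.9% to 51.3%), and the sites from 13 to 16, 14 to 15, 13 to 17 and 12 to 16. An overlap of 50% of both peaks left the numbers of genes as they were.

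Among peaks of both replicates, the share of spread between lines was 97.2% at ARRDC3, 94.1% at the DDIT4 promoter, 83.7% at DDIT4L and 90.8% at NDRG1. That reference set is built from the true replicate pairs, which draws replicates together by construction, so its p-values (exact permutation test, adjusted p = 0.048) carry no weight for a difference between lines. On the log2 score the share was 84.3% at the DDIT4 promoter (exact permutation test, adjusted p = 0.048), and the cause was not tested. With 1 library left out, the share ranged from 68.8% to 89.7% at ARRDC3, 60.1% to 99.8% at the DDIT4 promoter, 56.6% to 84% at the DDIT4 region 45.8 kb downstream, 65.3% to 95.5% at DDIT4L and 88.1% to 96.7% at NDRG1. The NDRG1 region passed the threshold without HCT-116 replicate 3 (96.7%, exact permutation test, adjusted p = 0.048). Measured from the 5' end of the gene, the NDRG1 promoter region lay 4527 bp downstream. A replicate block, added after the data were seen, fitted line and replicate number together and matched libraries only across numbers. The share was then 77% at ARRDC3, 69.9% at the DDIT4 promoter, 95.6% at the DDIT4 region 45.8 kb downstream, 83.4% at DDIT4L and 96.7% at NDRG1, and none passed (exact permutation test over 24 matchings, adjusted p from 0.16 to 0.38). Replicate differences over the 233 regions with a peak in every library correlated at 0.00 between PC-3 and T47D and 0.10 between A549 and HCT-116, so the numbers were not taken to pair libraries.

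Depth is unknown, lists differ in length, and a missing peak means only that none was listed, not an absence of binding. No gene expression was used, so no region was tied to a gene other than by position.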

Other observations

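The genes with the most similar pattern of highest-peak ranks over the 8 libraries, leaving out genes that shared a peak, were as follows, as a description with no test. The measure is the mean absolute difference of the percentile of the highest peak in the extended window, in percentage points. CIB1, ENSG00000261147 and ENSG00000275674 differed by 0.341 points from ARRDC3, and ACRBP, CD27 and CHD4 by 0.503 points from NDRG1. RUVBL1 and SEC61A1 differed by 4.22 points and EEFSEC by 4.33 points from TXNIP. DPF2, FRMD8 and LTBP3 differed by 6.9 points from DDIT4. RPTOR, the gene of the mTORC1 scaffold raptor, differed by 6.73 points from DDIT4L, and ADPRHL1 and GRTP1 by 7.93 points. For SESN2 it was 3.94 points for FBXO32, 5.64 for NTAQ1 and 5.75 for UBE2G2. Genes with the same value beside 1 gene can share 1 peak.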
